A study of Mustela putorius furo with 7 samples.

Results

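Of the 95129 open chromatin regions recorded in ferret pancreatic ductal epithelial (PDE) cultures, 7308 (7.68%) were 300 bp wide or less. These narrow regions were chosen by width alone, as those whose end minus start was at most 300 bp. Neither genotype nor signal entered the choice, although the width of a region came from peaks called in the same libraries. The narrow regions were 185 to 300 bp wide with a median of 262 bp, against a median of 558 bp over all regions and a maximum of 3628 bp.

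Bulk ATAC-seq served to measure accessibility in cultures from wild-type (WT) ferrets and from ferrets with the genotype CFTR KO/KO (CF), in which both copies of the gene are disrupted. Duct cells of newborns 1 to 3 days old were carried through 10 passages, which was done to remove other cell types, and then grown at an air-liquid interface over 14 days. The labels number 3 CF and 4 WT donors, whereas the study's methods name equal numbers of donors of the 2 genotypes, so p-values here measure the spread between libraries. All cultures were passaged primary cells without further treatment, and the ductal label could not be checked against marker genes because the regions carried no gene names here.

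ATAC-seq uses a transposase that cuts DNA where it is not wrapped around nucleosomes, so promoters, enhancers and other sites held open by DNA-binding proteins collect reads. A peak caller marks stretches where reads pile up over the local background, and a consensus region is the union of the overlapping peaks of several libraries. CFTR is the apical anion channel of ductal cells, and its loss disturbs the fluid and bicarbonate secretion of the pancreatic duct.

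Each signal value was a whole number of reads multiplied by 1 factor per library, and no value lay below 1 read. CF libraries had 8469877 to 11047724 reads in regions and WT libraries 3226534 to 8172005. Library numbers in the signal matrix and in the peak lists did not match. Among the narrow regions, 7 of 7 matrix columns tracked best with a list of their own genotype but only 1 of 7 with the list of the same number. Columns CF1, CF2 and CF3 tracked best with the lists CF3, CF2 and CF1. Columns WT1, WT2, WT3 and WT4 did so with the lists WT4, WT3, WT2 and WT1. Libraries are therefore named by matrix column, and peak lists by list.

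Narrow regions held few reads. In CF1, CF2 and CF3 the median narrow region had 14, 13 and 19 reads, while in WT1, WT2, WT3 and WT4 it had 7, 10, 3 and 5. All CF medians were above all WT medians, as were the CF depths above the WT depths. At the minimum of 1 read stood 4.93%, 4.64% and 2.20% of narrow regions in CF1 to CF3 and 18.5%, 11.7%, 37.6% and 25.2% in WT1 to WT4. In the shallowest library, WT3, 2751 narrow regions could thus not be told from a region without reads.

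After the authors' scaling the median signal of narrow regions, as log2(scaled reads + 1), was 3.58, 3.42 and 3.55 in CF1 to CF3 and 3.49, 3.30, 3.35 and 3.23 in WT1 to WT4. The genotypes overlapped, since WT1 lay above CF2. In wider regions the medians were 4.84 to 4.87 in CF and 4.92 to 4.99 in WT libraries, with every WT library above every CF library. Signal was also compared per length. Per kilobase, the median scaled reads were 37.8 to 44.1 in CF and 33.6 to 38.5 in WT libraries for narrow regions, and 48.6 to 50.5 and 51.9 to 54.3 for wider regions, so that narrow regions stayed below wider ones in each library. Narrow regions took 1.66% to 1.85% of the reads of CF libraries and 1.23% to 1.61% of those of WT libraries.

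**Figure D1:**
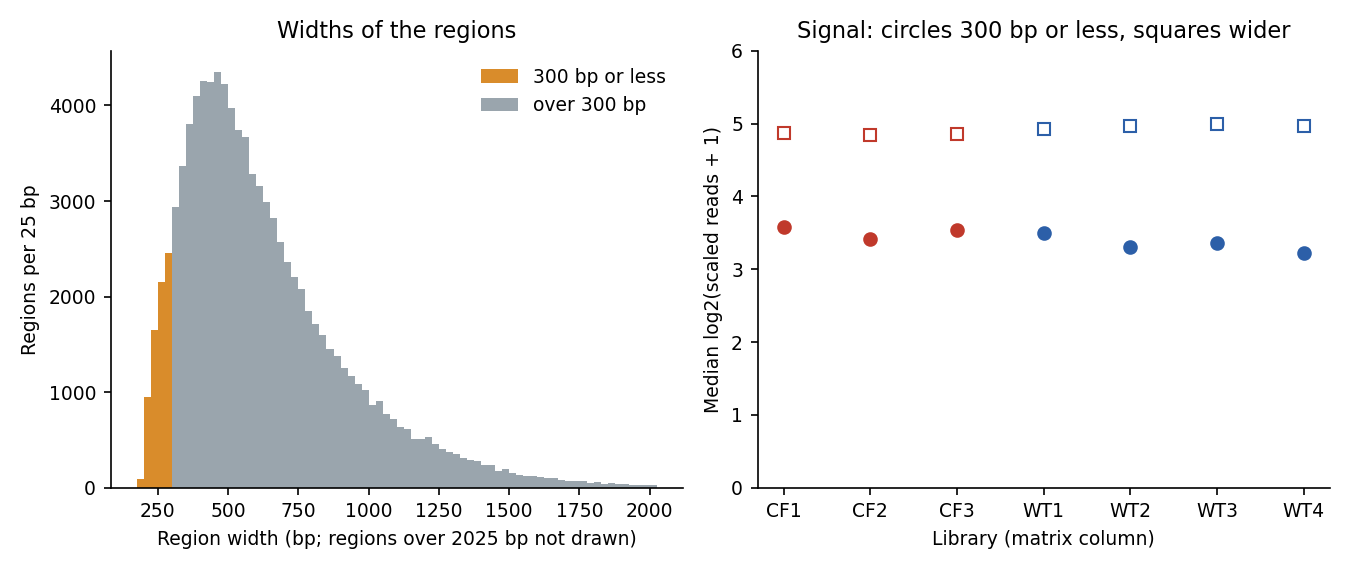
Left, number of regions per 25 bp (y axis) by region width in bp (x axis), with the 7308 regions of 300 bp or less in orange at the lower end of the range. Right, median log2(scaled reads + 1) (y axis) of each library by matrix column (x axis, CF red, WT blue), where narrow regions (circles) lie between 3.23 and 3.58 and wider regions (squares) between 4.84 and 4.99.

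The libraries resembled each other less over narrow regions. Across the 7308 narrow regions, Pearson's r of log2 signal was 0.58 to 0.64 between CF libraries, 0.39 to 0.56 between WT libraries and 0.30 to 0.39 between genotypes. Across wider regions the corresponding values were 0.89 to 0.91, 0.75 to 0.85 and 0.68 to 0.72. These points share scaffolds and depth, and the narrow regions spanned a smaller range of signal. Within a genotype the SD of log2 signal averaged 0.86 in narrow and 0.64 in wider regions. It was 0.90 in wider regions of like signal, which here means wider regions placed in the 10 signal deciles of the narrow regions and averaged over the deciles with equal weights.

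Most narrow regions rested on peaks of few libraries. A peak of exactly 2 of the 7 lists, the fewest that any region had, lay under 5216 narrow regions (71.4%), against 19.4% of wider regions and 60.9% of wider regions of like signal. A further 1200 (16.4%) had peaks in 3 lists. Only 181 (2.48%) had a peak in all 7 lists, against 28.4% of wider regions and 5.08% of wider regions of like signal. When like signal was taken in 50 steps in place of 10, a choice made after the data were seen the last value was 3.01%. Because a region is the union of its peaks, each added overlapping peak can lengthen it but not shorten it, and width and number of lists are tied by construction.

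Of the narrow regions 52.4% had peaks in lists of both genotypes, 30.1% in CF lists only and 17.5% in WT lists only. Over all regions these shares were 77.6%, 12.6% and 9.89%, and in wider regions of like signal 51.7%, 26.6% and 21.7%. With like signal taken from the genotype with the higher signal, they were 64.8%, 17.7% and 17.5%. Each list covered a different share of the narrow regions, 57.3%, 47.5% and 38.3% for the lists CF1 to CF3 and 27.4%, 17.3%, 41.8% and 24.3% for the lists WT1 to WT4. The list WT3 covered more than the list CF3, so the genotypes overlapped. Of the narrow regions with exactly 2 lists, 1939 (37.2%) had both in CF, 1177 (22.6%) both in WT and 2100 (40.3%) one in each genotype. Among wider regions with 2 lists these shares were 33.7%, 28.9% and 37.4%. The lists allow 3 CF pairs, 6 WT pairs and 12 mixed pairs. The most frequent pair was CF1 with CF2, at 908 regions, and the least frequent was WT1 with WT2, at 60. The lists CF1 and CF2 were the longest, at 104397 and 98417 peaks, and the list WT2 was the shortest, at 48417.

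**Figure D2:**
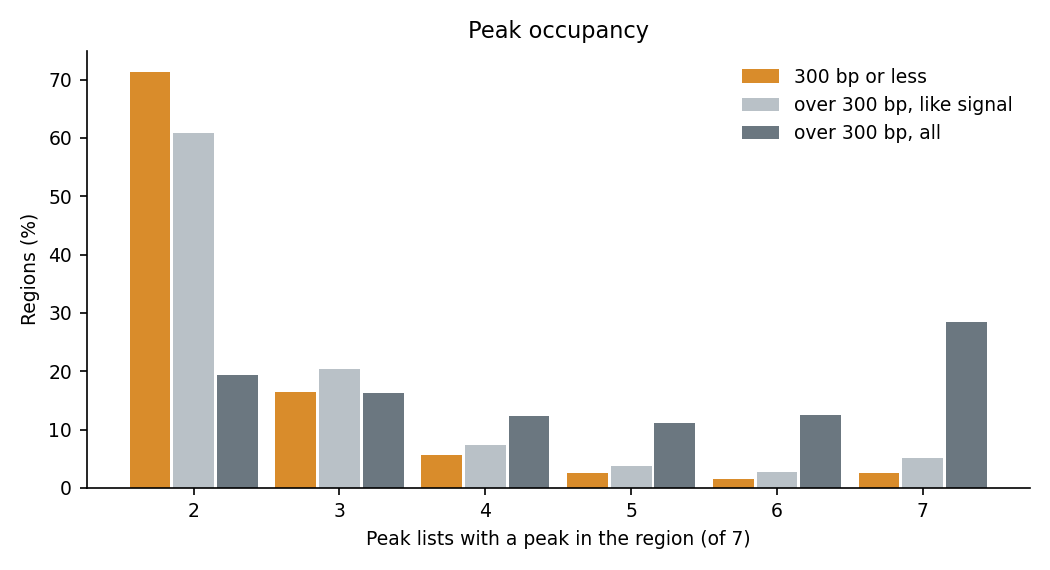
Share of regions (%, y axis) with a peak in 2 to 7 of the 7 lists (x axis) for regions of 300 bp or less (orange), wider regions of like signal (light grey) and all wider regions (dark grey). A peak in 2 lists only was found in 71.4%, 60.9% and 19.4% of regions.

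The peaks themselves were weaker and shorter. A peak cannot be longer than its region, so peak length and the share of shortest peaks are tied to the choice by width. The 18556 peaks that overlapped narrow regions had a median fold enrichment over background of 4.79, a median −log10 q-value of 5.38 and a median length of 213 bp, against 5.88, 8.77 and 421 bp for peaks in wider regions. The shortest length in a list, 180 to 208 bp depending on the list, was that of 25.1% of peaks in narrow regions and of 4.98% of those in wider regions. At least 1 such shortest peak lay in 3753 narrow regions (51.4%). With no peak under 180 bp, a region of at most 300 bp has no room for 2 separate peaks of 1 list. Each list thus had no more than 1 peak in 100% of narrow regions by construction. In 2132 narrow regions (29.2%) a single peak covered the region from end to end. The summits of the peaks in a region had a median range of 46 bp in narrow regions, against 154 bp in wider regions. Summits lie within their region, so this range is bounded by the width. It was not scaled for width or for the number of lists.

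Short peaks were common in all lists, most of them outside the consensus regions of this width. Peaks of 300 bp or less made up 44.3%, 39.8% and 39.8% of the lists CF1 to CF3 and 38.1%, 51.4%, 33.2% and 39.3% of the lists WT1 to WT4. The WT lists held both the highest and the lowest share. The mean share was 41.3% ± 2.62 for the 3 CF lists and 40.5% ± 7.71 for the 4 WT lists (SD), and a two-sided exact permutation test of the difference gave p = 0.8 (adjusted p = 0.8). In number, the lists held 38960 ± 7403 such peaks in CF and 27241.5 ± 2367 in WT (SD, n = 3 and 4, two-sided exact permutation p = 0.0571, adjusted p = 0.114 over both tests). Each CF list held more of them than each WT list, at least 31473 against at most 29616. The permutation p of 0.0571 is the smallest that this two-sided test can give here, since it doubles the smaller tail.

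To ask which narrow regions depended on the CFTR genotype, the signal of all 95129 regions was fitted together with limma. Calls needed an adjusted p (Benjamini-Hochberg) under 0.05 together with a log2 change past 1, and called regions are termed opened where CF was higher and closed where CF was lower. Among narrow regions 118 opened and 149 closed, together 3.65%, whereas 10.6% of all regions tested were called. Opened regions made up 1.61% of narrow regions against 4.31% of all regions, and closed regions 2.04% against 6.26%. Both shares were below the background. Without adjustment, 1086 narrow regions had a p under 0.05.

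The counts depended on the libraries that entered. Without CF1, CF2 or CF3 there were 20, 19 or 15 opened and 60, 58 or 54 closed narrow regions, and without WT2 there were 52 and 93. Of the 118 opened regions 19, 19 and 14 were called again without CF1, CF2 and CF3, and of the 149 closed regions 57, 57 and 52. Opened regions were 44.2% of the narrow calls with the authors' scaling, 62.7% with upper-quartile scaling, 77.9% with library size alone and 5.25% with cyclic loess, so the balance of the directions depended on the scaling.

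The median narrow region changed by 0.22 on the log2 scale, CF over WT, against 0.03 over all regions and 0.02 over wider regions, but by −0.20 with cyclic loess and by 0.54 with library size alone. Library size alone moved the median of all regions to 0.38, and relative to it the narrow regions stood 0.17 higher, against 0.19 with the authors' scaling. It was 0.21 among narrow regions with a mean of at least 10 reads, where all regions had 0.03, and 0.00398 where that mean was at least 30 reads, against −0.05 for all regions. The shares at the minimum of 1 read, given above, differed between the genotypes, and their part in this median was not tested. All CF libraries lay above all WT libraries in 10.4% of narrow regions, where the background was 11.5%, and below them in 5.58%, where the background was 12.8%.

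Whether narrow regions were called less often than wider regions of like signal depended on how like signal was defined. By the mean of both genotypes, 10.6% of wider regions of like signal were called, 5.64% opened and 4.93% closed, against the 3.65% of narrow regions. By the genotype with the higher signal, 3.26% of wider regions of like signal were called, 1.59% opened and 1.67% closed, slightly below the share of narrow regions. The values with 50 steps of signal in place of 10 were 10.7% and 3.12%. The change itself enters both definitions, since a region with a large change has a low mean for its higher genotype.

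By the first definition narrow regions had fewer calls than wider ones in all 10 deciles, from 2.60% to 6.02% in narrow and from 5.30% to 12.0% in wider regions. By the second definition narrow regions were called more often than wider ones in deciles 5 to 9. In decile 9 the shares were 10.1% and 7.32%. In decile 10, which ran from 4.82 to 11.0 on the log2 scale and held 51824 wider regions, the shares were 9.44% and 15.9%. Calls were nearly absent from the lowest 4 deciles, at most 0.274% of narrow and 0.260% of wider regions. The mean size of the log2 change, without regard to sign, was 0.79 in narrow regions, 1.04 in wider regions of like mean signal and 0.68 in wider regions of like higher signal.

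**Figure D3:**
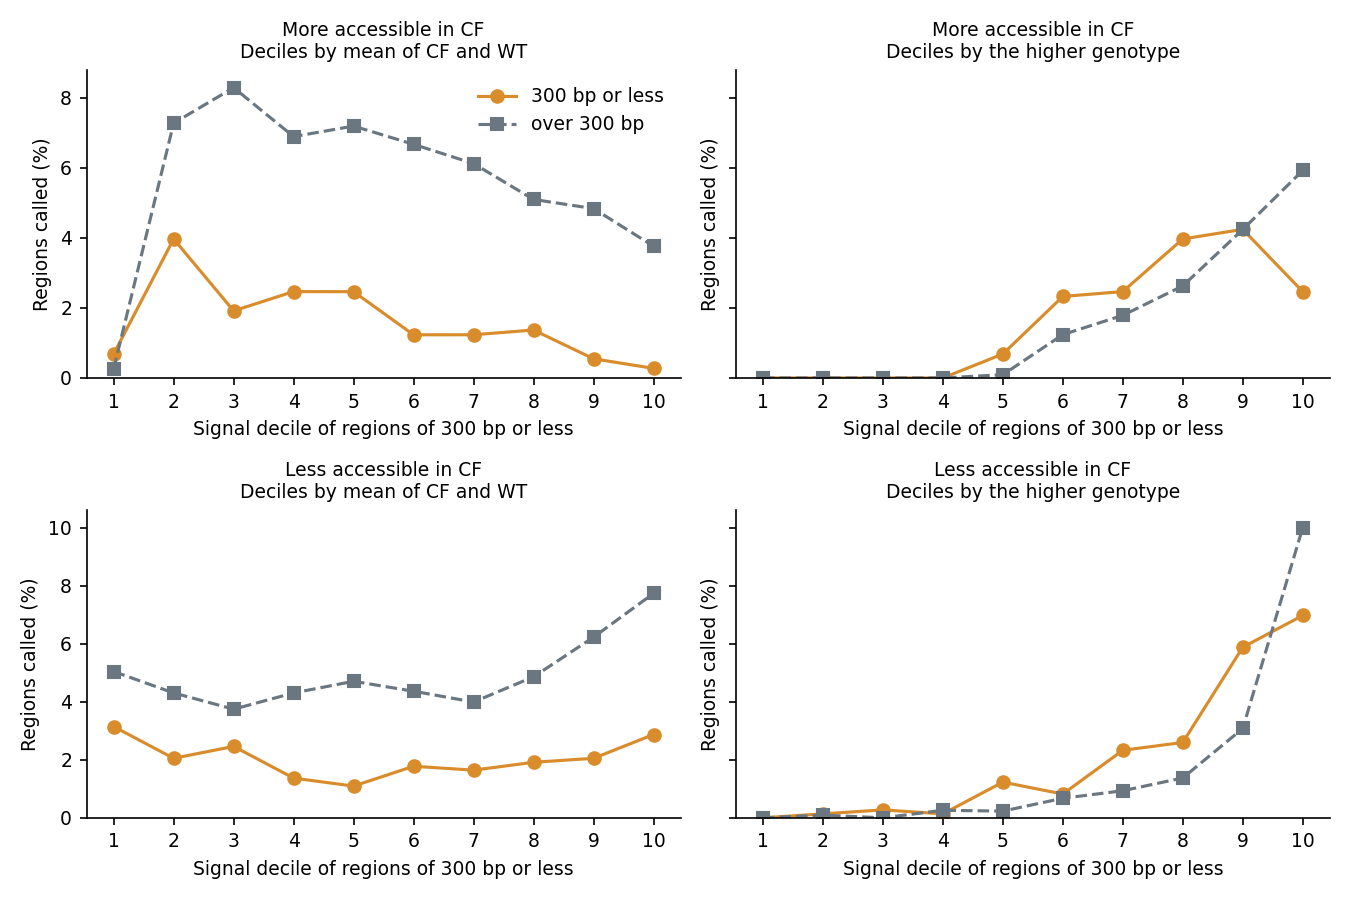
Share of regions opened (top) and closed (bottom) in CF (%, y axis) in the 10 signal deciles of the narrow regions (x axis, from lowest to highest), sorted by the mean of both genotypes (left) or by the genotype with the higher signal (right), for narrow (orange) and wider (grey) regions. On the left the total of the narrow regions is lower in each decile, and on the right it is higher in deciles 5 to 9 and lower in decile 10.

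Where narrow regions were called, the changes were large. The median log2 change was 2.32 in opened and −2.47 in closed narrow regions, against 2.26 and −1.92 in wider regions. The smallest change called was 1.71 in opened and −1.07 in closed narrow regions, and these medians rest on the regions that passed. Opened narrow regions had a median of 25.5 reads in CF and 1.5 in WT libraries, and in 39 of 118 every WT library was at 1 read. Closed narrow regions had a median of 4.33 reads in CF and 16.5 in WT libraries, and in 11 of 149 every CF library was at 1 read. The genotypes did not overlap in 118 of 118 opened and 143 of 149 closed narrow regions, and likewise in 3902 of 3984 opened and 5577 of 5805 closed wider regions.

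**Figure D4:**
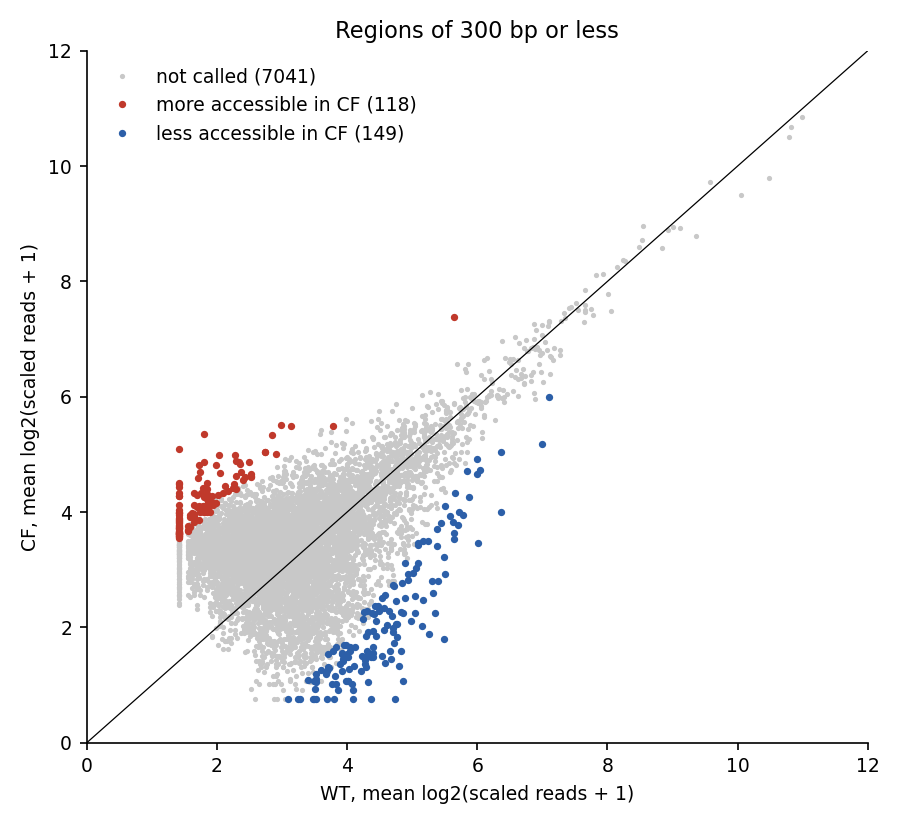
Mean log2(scaled reads + 1) of the CF libraries (y axis) against the WT libraries (x axis) for the 7308 narrow regions, with 118 opened regions in red, 149 closed regions in blue and the line of equal signal. The opened regions crowd at the left edge, where each of 4 WT libraries is at 1 read in 39 of them, and the regions of highest signal lie along the line.

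Peak calls and signal changes come from the same libraries and are not independent. The called shares below stand beside a background of 4.31% opened and 6.26% closed over all regions, and beside wider regions of the same peak pattern, which were not matched in signal. Peaks lay in CF lists only in 116 of 118 opened narrow regions and in WT lists only in 141 of 149 closed ones. Of narrow regions with peaks in 2 CF lists and no WT list, 87 of 1939 (4.49%) opened and none closed by limma, edgeR or DESeq2, with 0 lower in CF at an unadjusted limma p under 0.05. The opened share was close to the background and below the 10.4% of wider regions of this pattern. Of those with peaks in 2 WT lists and no CF list, 113 of 1177 (9.60%) closed and none opened by any of these tools, with 0 higher in CF at an unadjusted limma p under 0.05, and 11.2% of wider regions of this pattern closed. Regions with 1 list of each genotype numbered 2100. The limma test called none of them, 23 had an unadjusted p under 0.05, and edgeR and DESeq2 on the recovered reads called 1 and 2. Their median log2 change was 0.11, against 1.07 for the CF pairs and −1.07 for the WT pairs. With more lists of 1 genotype the called share was higher, 29 of 262 (11.1%) opened for all 3 CF lists and no WT list, 24 of 97 (24.7%) closed for 3 WT lists and no CF list, and 4 of 6 closed for all 4 WT lists and no CF list. Wider regions of these patterns had 44.1%, 44.4% and 91.4%.

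The opened narrow region with the smallest adjusted p lay at the very start of scaffold AEYP01113727, from 1 to 272, and was the only opened one with a peak in all 7 lists. Its scaled reads were 136, 187 and 180 in CF1 to CF3 and 55.8, 38.2, 61.5 and 43.6 in WT1 to WT4. The lowest CF library, CF1, lay far above the highest WT library, WT3. Its log2 change was 1.74 ± 0.27 (SE, adjusted p = 0.000295, limma), while the wider region 692 bp away changed by −0.24 (limma adjusted p = 0.882).

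On GL896912, from 8735742 to 8736017, the narrow region had 44, 45 and 56 reads in CF1 to CF3 and 1 read in each WT library, with a peak in all 3 CF lists and no WT list. Set against a floor of 3 reads in each WT library the CF signal was higher by at least 6.22-fold. The fitted log2 change of 3.68 ± 0.67 (SE, adjusted p = 0.00105, limma) depends on the value added before the logarithm and is no bound. Narrow regions on GL897019 (1450559 to 1450790), GL896958 (2231788 to 2232078) and GL896903 (9202550 to 9202817) also had 1 read in each WT library, and were at least 4.14-fold, 4.22-fold and 3.96-fold higher in CF. None of these 4 had a called wider region as nearest neighbour.

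Other opened narrow regions stood next to a larger opened one. On GL897166, from 1704619 to 1704863, the reads were 44, 63 and 70 in CF1 to CF3 and 1, 5, 1 and 1 in WT1 to WT4. Its log2 change was 3.56 ± 0.65 (SE, adjusted p = 0.00113, limma), and a wider region 149 bp away, from 1703343 to 1704468, changed by 5.62. On GL897026, from 4609375 to 4609575, the reads were 67, 46 and 88 in CF1 to CF3 and 5, 11, 3 and 2 in WT1 to WT4, and the wider region 2050 bp away changed by 4.25. In both regions all CF libraries were far above all WT libraries. This second call was lost without CF1 or CF3, with adjusted p of 0.0652 and 0.0640 from limma. The remaining named opened regions lay on GL896922 (3591675 to 3591971), GL897034 (5039531 to 5039810) and GL897098 (1939167 to 1939405), with log2 changes of 3.09, 3.06 and 2.96. The call on GL897098 was lost without CF2 or CF3, with limma adjusted p of 0.0690 and 0.0517.

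The closed narrow region with the smallest adjusted p lay on GL896901 from 19531196 to 19531482 and had peaks in all 4 WT lists and no CF list. Its scaled reads were 11.8, 16.4 and 17.4 in CF1 to CF3 and 86.6, 65.7, 119.9 and 65.4 in WT1 to WT4. Each WT library was above each CF library, and WT3 was the highest. The log2 change was −2.37 ± 0.37 (SE, adjusted p = 0.000282, limma), and the wider region 1371 bp away also closed, by −1.23. A second closed narrow region on this scaffold, from 27578324 to 27578592, changed by −3.36 ± 0.59 (SE, adjusted p = 0.000776, limma), while its nearest wider region, 3769 bp away, changed by 1.22 and was not called.

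On GL897024, from 5769632 to 5769921, every CF library had 1 read and WT1 to WT4 had 21, 21, 13 and 11. Signal there was at least 12.9-fold lower in CF when set against a floor of 3 reads in each CF library. The wider region 1826 bp away did not follow, with a log2 change of 0.00. On GL896939, from 7639926 to 7640177, every CF library again had 1 read, against 13, 20, 5 and 17 in WT1 to WT4, a signal at least 9.65-fold lower in CF. This region had peaks in 3 of 4 WT lists.

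Of the 10 named closed narrow regions, the one on AEYP01109856, from 5651 to 5899, had the highest signal. Another lay on GL897878 from 6891 to 7133. On AEYP01109856 the scaled reads were 52.5, 30.6 and 27.0 in CF1 to CF3 and 166, 105, 178 and 83.8 in WT1 to WT4, and log2 signal changed by −1.82 ± 0.33 (SE, adjusted p = 0.000912, limma). On GL897878 they were 14.1, 8.95 and 7.87 against 110, 39.1, 76.9 and 48.6, and log2 signal changed by −2.55 ± 0.46 (SE, adjusted p = 0.000966, limma). In both regions the groups did not overlap, and WT2 and WT4 were the lower WT libraries. The remaining 4 lay on GL896905 (5822196 to 5822414), GL897070 (42507 to 42768), GL896937 (12420707 to 12420984) and GL896924 (7276454 to 7276736), with log2 changes of −3.70, −3.78, −3.48 and −3.25. Of these, the regions on GL896905, GL897070 and GL896937 had a nearest wider region that closed too, at 278, 724 and 1910 bp. That of the region on GL897878, at 717 bp, also closed, by −2.25. The nearest wider regions on AEYP01109856 and GL896924 changed by −0.86 and −0.31 and were not called.

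**Figure D5:**
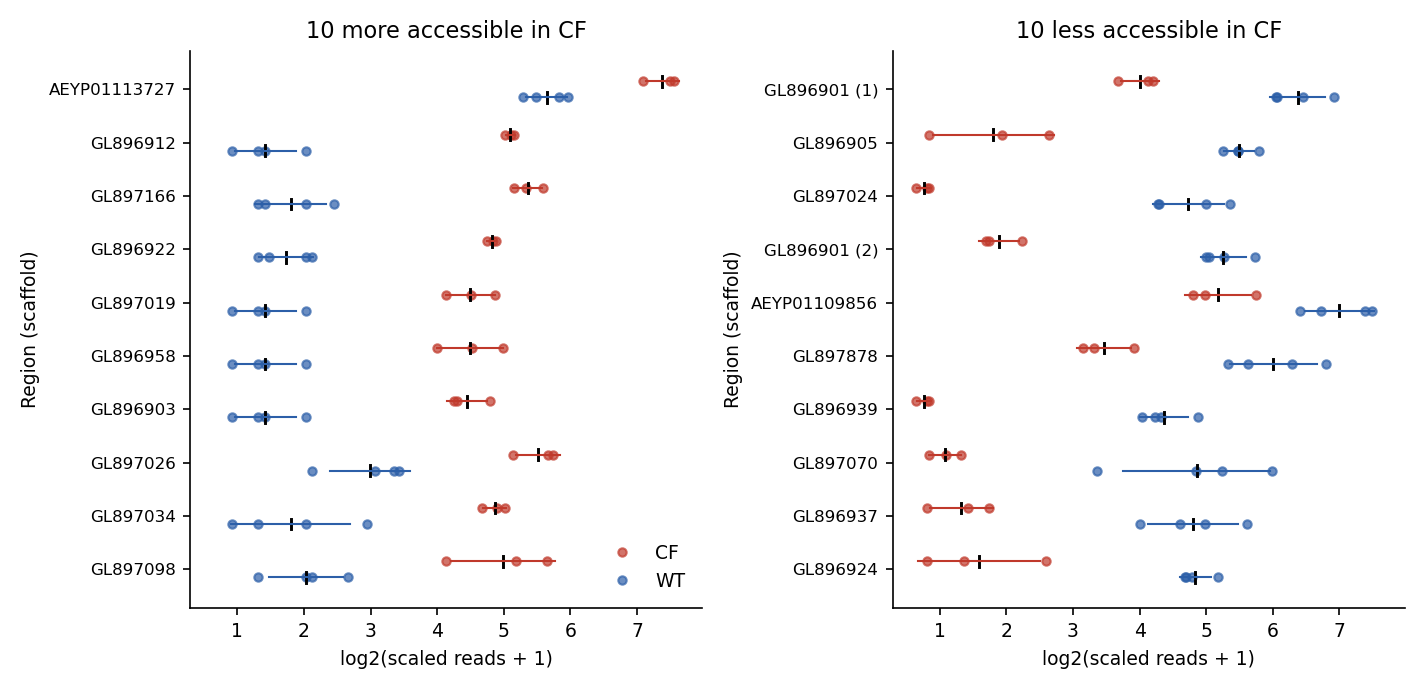
The log2(scaled reads + 1) (x axis) in the 10 opened and the 10 closed narrow regions of smallest adjusted p (y axis, by scaffold), where points are the 3 CF (red) and 4 WT (blue) libraries, black ticks their means and lines ± 1 SD. CF and WT libraries do not overlap in any of the 20 regions, which was a condition of the choice.

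Wider regions near called narrow regions were read against the 4.54% of all wider regions that opened and the 6.61% that closed. A wider region lay within 5 kb of 69 opened narrow regions, and 9 of these neighbours (13.0%) opened and none closed. Of 103 closed narrow regions with such a neighbour, 20 neighbours (19.4%) closed and 1 opened. Over all narrow regions with a neighbour within this distance, 289 of 3235 neighbours were called in either direction. That is a lower share than the 11.1% of all wider regions that were called. These shares are a description with no test. The sign of the change was shared in 53 of 69 and 82 of 103 cases, against 1900 of 3235 (58.7%) over all of them. Across these 3235 pairs Pearson's r of the log2 changes was 0.26, between points that share libraries and scaffolds.

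Narrow regions were spread over 692 of 1895 scaffolds. On the 145 scaffolds with at least 200 regions, they made up a median of 7.02% of regions, from 3.62% on GL897126 to 12.2% on GL896988. The distance to the nearest region had a median of 5712.5 bp, against 5685 bp for wider regions. Both ends of the range were fuller in narrow regions, with 19.5% against 16.8% within 1 kb of another region and 8.24% against 4.77% beyond 50 kb or alone on their scaffold. Scaffolds with fewer than 20 regions held 446 narrow regions (6.10%), against 3.58% of wider regions, and 15 narrow regions began at the first base of a scaffold, where a region may be cut short by the assembly.

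A small set of narrow regions took a large share of the reads. The 44 narrow regions with a mean log2 signal over 7 held 13.1% to 18.2% of the reads in narrow regions in each library. They lay on 27 scaffolds, 22 of them on scaffolds with fewer than 20 regions, and 25 had a peak in all 7 lists. The limma, edgeR and DESeq2 tests called none of the 44, and 4 had an unadjusted limma p under 0.05, each lower in CF. Of all regions with a mean log2 signal over 7, 3.18% were called by limma, a share at which few calls would fall among 44 regions. Within the 44, the best fold enrichment of a peak over background ran from 2.02 in a region on GL897386 to 27.2 on GL897394. Narrow regions were 23 of the 81 regions (28.4%) on GL897252. On GL897252 the regions from 715330 to 715620 and from 711509 to 711782 had the highest signal of all narrow regions. Their best fold enrichment was 5.39 and 4.74, against a median of 5.19 over all narrow regions, so high signal did not go with high enrichment there. The first had 2452, 1543 and 1652 scaled reads in CF1 to CF3 and 2414, 1318, 3026 and 1808 in WT1 to WT4, and log2 signal changed by −0.15 ± 0.24 (SE, adjusted p = 0.759, limma). The genotypes overlapped, and WT3 was the highest and WT2 the lowest library. The third, on GL897119 from 2638865 to 2639139, overlapped likewise, and log2 signal changed by −0.29 ± 0.25 (SE, adjusted p = 0.525, limma).

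The next in signal, on GL897360 from 1 to 286, lay at a scaffold start and differed between genotypes by less than the fold threshold. Its scaled reads were 957, 971 and 739 in CF1 to CF3 and 1151, 1646, 1615 and 1356 in WT1 to WT4, without overlap, and the log2 change was −0.69 ± 0.18 (SE, adjusted p = 0.0175, limma). On GL897110, from 1 to 268, also at a scaffold start, the change was −0.56 ± 0.18 (SE, adjusted p = 0.0538, limma). These 5 regions were also the 5 of highest signal among those with a peak in all 7 lists.

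Of the 181 narrow regions open in all 7 lists, 1 opened and 1 closed (1.10%), against 7.72% of wider regions with 7 lists, whose signal was higher, and 10.6% of all regions. Across the 181, the median log2 change was −0.10 and the median log2 signal 5.63. The 3 with the smallest change lay on GL897021 (2972563 to 2972795), GL897115 (297448 to 297679) and GL897281 (589851 to 590146). On GL897021 the scaled reads were 94.9, 114 and 141 in CF1 to CF3 and 103, 108, 191 and 82.1 in WT1 to WT4. The WT libraries enclosed the CF libraries, and the log2 change was 0.00 ± 0.28 (SE, adjusted p = 0.997, limma).

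Within the narrow regions the share called was higher at greater width. It was 2.01% from 185 to 225 bp, 3.57% from 226 to 250 bp, 3.95% from 251 to 275 bp and 4.15% from 276 to 300 bp, and 5.55% in the regions up to 325 bp just outside. Signal and the number of lists were higher with width as well, with a mean of 2.39 lists in the first and 2.65 in the last of these narrow classes, and their part was not tested. At the threshold itself the 109 regions of 300 bp had median log2 signals of 3.52 (CF) and 3.04 (WT), a median change of 0.37, and no call by limma, with 17 at an unadjusted p under 0.05 and 3 and 4 calls by edgeR and DESeq2. The 125 regions wider by 1 bp had 3.44 and 3.31, a median change of 0.17, and 4 opened and 7 closed. The 3 narrowest regions, of 185, 187 and 189 bp, lay on GL897160 (782700 to 782883), GL897359 (278670 to 278855) and GL896919 (15384573 to 15384760). Each had a peak in 1 CF and 1 WT list, and their log2 changes of 0.69, −0.12 and 0.09 did not pass the test.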

How the data were processed

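Bulk ATAC-seq libraries of 3 CF and 4 WT ferret PDE cultures were used. The authors trimmed paired-end reads with Trimmomatic, aligned them to MusPutFur1.0 with Bowtie 2, called peaks per library with MACS2 and built a signal matrix with DiffBind. Peak names carry the word dedup, but the sources used here do not state how duplicate reads were removed or read ends shifted. The deposited signal was whole reads times 1 factor per library (100% of values within 0.001 reads), so reads were recovered. The deposited peak lists held for each peak its score, its fold over background (a ratio) and, as −log10, its p-value and q-value. Region starts lay 1 base before the peak starts, and positions are counted from 1, so the width by end minus start is 1 base more than the printed span. No genome of this build was used, so regions carry no genes and no sequence.

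All regions were tested with limma 3.58.1 (R 4.3.3, mean trend, log2(signal + 1), genotype only). Peaks and regions shared at least 1 bp. Scripts were tested on simulated data. Alternatives were other scalings, pseudocounts, read minimums, widths, edgeR 4.0.16, DESeq2 1.42.0 and leaving out libraries. Named regions were the 10 opened and 10 closed of smallest adjusted p without overlap, the 5 of highest signal, in all and with 7 lists, the 3 narrowest and the 3 least changed with 7 lists. The members and lists were chosen with earlier results of these data known.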

Additional observations from a re-analysis of the deposited data

Results flagged for a closer look

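Among 57 sets of WT values tested for a sample far from the others, 1 stood out, and chance flags about 1 in 20. In the narrow region on GL896919 from 15384573 to 15384760, matrix column WT3 had a log2 signal of 4.99, while the other WT libraries had 1.87 to 2.12 and the CF libraries 2.24 to 3.40.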

How the results depend on the processing

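The median narrow region had 3 to 19 reads per library, which limits the precision of each value. With a library left out, 15 to 159 narrow regions opened and 54 to 157 closed, 0.944% to 4.32% of narrow regions and 3.76% to 13.6% of wider regions of like signal were called, and the median change of narrow regions was 0.16 to 0.32. The numbers opened and closed were 307 and 87 with library size alone, 21 and 379 with cyclic loess, and 261 and 251 with limma-voom. Upper-quartile scaling opened 188, edgeR opened 213, DESeq2 closed 281, and thinning to equal reads outside the most read scaffold with TMM scaling closed 85. For these the cause was not tested. A mean of at least 10 reads left 91 closed, and at least 30 reads left 4 opened and 9 closed, with fewer regions tested. The median change was 0.54, 0.39 and −0.20 with library size, upper-quartile scaling and cyclic loess, 0.00398 with at least 30 reads and 0.0980 with 8 added before the logarithm. Widths up to 250, 350 and 400 bp gave 35, 274 and 542 opened and 45, 349 and 663 closed regions from sets of different size. The share called was 2.97%, 4.58% and 5.60%, since the added regions were called more often. Wider regions of like higher signal were called at 3.26%, or 3.12% with 50 steps. The 20 named opened and closed regions kept their direction in each alternative that tested them, which libraries without overlap nearly fix, with 4 adjusted p over 0.05, at most 0.0690. The share of narrow regions with a peak in all 7 lists was 2.09% to 2.74% over its 6 alternatives. Deviations from the genotype mean correlated at 0.0781, 0.0710 and −0.0216 between same-numbered matrix columns, and at −0.0925 to 0.0475 between the other CF and WT columns. Column numbers did not match list numbers, so these values cannot decide whether donors were paired. With the matrix column number as a block, 108 regions opened and 181 closed. WT4 had no CF column of its number and so did not enter the genotype change of that fit. Its median change of 0.16 was that of the fit without WT4. Thinning, centring of scaffolds and the 50 steps were chosen after seeing the data.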
